A study of Mus musculus with 8 samples.

Results

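Transcript levels of 9 small GTPase genes were examined in mouse hippocampal neurons treated with melanin-concentrating hormone (MCH). The genes were *Rasl11a*, *Rasl11b*, *Rasl10a*, *Rasl10b*, *Rasd1*, *Rasd2*, *Gem*, *Rem2* and *Rrad*, which are 9 of the 45706 genes in the count table. *Rasl11a* was chosen by its own readout, because its level was about halved after MCH, and the other 8 were listed with it as relatives or as small GTPases linked to activity. The MCH difference of *Rasl11a* is therefore given as a description without a test. All 9 genes passed the filter on low counts, as did 14962 genes in all.

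Primary hippocampal neurons were prepared from C57BL/6 wild-type mice at embryonic day 18 and received 1 µM MCH peptide or its vehicle (H2O) for 4 h at 12 to 14 days in vitro. From each of 2 cultures, 2 wells were given vehicle and 2 were given MCH, so that 4 wells per treatment were sequenced, numbered as replicates 1 to 4. Which culture a well came from is given neither in the labels nor in the methods, so *P* values measure the spread between wells, part of which may be technical. All 8 wells are tagged with an Alzheimer's disease model in the labels, but their genotype entry is wild type. Poly-A RNA was sequenced from each well, with 26083936 to 31844861 estimated reads on genes.

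Small GTPases are molecular switches that are active when bound to GTP and inactive when bound to GDP. Exchange factors load them with GTP, and GTPase-activating proteins (GAPs) end the signal. Several of the genes described here encode atypical members of the Ras family. In neurons, the RGK proteins (Rad, Gem, Rem and Rem2) bind the β subunits of voltage-gated calcium channels and lower calcium current. RASD proteins (Dexras1 and Rhes) couple to G proteins, and Dexras1 also to nitric oxide signaling. MCH is a hypothalamic neuropeptide that acts on a G protein-coupled receptor.

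The 5' flanking sequences of *Rasl11a*, *Rasl11b* and *Rasl10a* are shown because these 3 genes had the clearest differences between treatments in one or more of the fits described below. They lie before the RefSeq transcription start on GRCm38.p6, all on the plus strand, at chr5:146844821-146845070 for *Rasl11a*, chr5:74195076-74195285 for *Rasl11b* and chr11:5057878-5058127 for *Rasl10a*. Those of *Rasl11a* and *Rasl10a* hold the 250 bases directly before that start. The *Rasl11b* stretch holds 210 bases, since it stops before the first annotated exon, which begins at 74195286. Its RefSeq start lies further along, at 74195326. Capitals mark the GC box (GGGCGG), the CCAAT box (CCAAT) and the half-site of the cAMP response element (TGACG), each searched on both strands.
Rasl11a: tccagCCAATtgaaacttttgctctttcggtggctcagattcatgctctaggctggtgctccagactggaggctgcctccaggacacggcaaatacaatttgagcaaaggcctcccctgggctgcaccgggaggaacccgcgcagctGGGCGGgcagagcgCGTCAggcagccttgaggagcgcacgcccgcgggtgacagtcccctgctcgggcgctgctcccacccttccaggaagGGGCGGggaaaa
Rasl11b: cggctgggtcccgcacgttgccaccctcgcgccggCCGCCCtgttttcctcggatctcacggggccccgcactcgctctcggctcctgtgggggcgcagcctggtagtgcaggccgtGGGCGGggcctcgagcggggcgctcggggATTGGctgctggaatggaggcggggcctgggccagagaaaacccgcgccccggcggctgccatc
Rasl10a: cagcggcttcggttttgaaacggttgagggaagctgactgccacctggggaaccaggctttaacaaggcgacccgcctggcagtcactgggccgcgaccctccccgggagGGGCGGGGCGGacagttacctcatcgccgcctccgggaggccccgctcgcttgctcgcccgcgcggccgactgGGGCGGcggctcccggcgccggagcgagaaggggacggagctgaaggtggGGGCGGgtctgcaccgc

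A window of 250 bases, searched whole, was found for 5 of the 9 genes, namely these 3, *Rasd2* and *Rem2*. The *Rasl11a* window held the half-site on the minus strand, 89 to 85 bases before the start, which 17.8% of all 32851 windows of 250 bases also held. None of the 5 windows held the full cAMP response element (TGACGTCA, in 1.55% of all windows), the AP-1 site (TGANTCA, 6.75%), the CArG box (1.47%) or either of the Egr sites GCGTGGGCG (0.536%) and GCGGGGGCG (2.57%). GC boxes lay in 4 of the 5 windows, against 32.7% of all windows. *Rasl11a* held 2 of them, 103 to 98 and 12 to 7 bases before the start, and *Rasl10a* held 4, of which 2 overlap by 1 base. CCAAT boxes lay in the windows of *Rasl11a* and *Rasl11b*, against 33.9% of all windows. The windows of *Rasd2* (75.2% G and C), *Rasl11b* (74%) and *Rasl10a* (72.4%) were richer in G and C than the median window (52.4%), and those of *Rasl11a* (63.6%) and *Rem2* (55.6%) lay between. These matches describe the letters only.

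The wells separated by more than treatment. In deviations of log2 CPM from the mean of each treatment, 59.8% of the variance lay along a first component that set the wells numbered 1 and 2 apart from those numbered 3 and 4, with either treatment. CPM are reads scaled to the library size. These are called the sides below, and whether they are the 2 cultures is not given. The 6 astrocyte markers summed to 289.7 to 391.8 CPM in replicates 1 and 2 and to 1293 to 1457 CPM in replicates 3 and 4, and all 6 were higher in each well of the second side. The 6 neuron markers summed to 6326 to 6542 and 5887 to 5995 CPM. The treatments overlapped in these sums, with 348.2 to 1341 (vehicle) and 289.7 to 1457 CPM (MCH) for astrocytes and 5954 to 6450 and 5887 to 6542 CPM for neurons. The 3 inhibitory neuron markers summed to 1674 to 2049 CPM with vehicle and 1634 to 1887 CPM with MCH, the 7 oligodendrocyte lineage markers to 66.3 to 146.2 and 56.9 to 145.1 CPM with *Sox10* and *Mog* at 0 in all wells, the 6 microglia markers to 3.41 to 5.91 and 4.47 to 5.93 CPM, and the 6 fibroblast and vessel markers to 6.16 to 13.97 and 6.36 to 13.6 CPM. In bulk wells, fewer cells of a type and less RNA per cell cannot be told apart.

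On the TPM scale, which corrects for length and depth and so allows genes to be compared, *Rasl10b* was the most abundant of the 9 with vehicle, at 146.9 ± 13.4 TPM (SD, n = 4), followed by *Rasl11a* at 46.6 ± 7.59 and *Rasl11b* at 44.6 ± 4.06 TPM, whose wells overlapped. *Rem2* followed at 28.5 ± 3.67 and *Rasd2* at 9.85 ± 0.336 TPM, each apart from its neighbors in the order. *Rasl10a* (5.37 ± 1.95), *Gem* (3.18 ± 1.69) and *Rasd1* (1.97 ± 0.228 TPM) overlapped each with the next, and *Rrad* was lowest, at 1.06 ± 0.377 TPM. In the MCH-treated wells the order was *Rasl10b* (140.9 ± 14.8), *Rasl11b* (34.1 ± 1.11), *Rem2* (25.0 ± 1.503), *Rasl11a* (22.0 ± 2.11), *Rasd2* (9.80 ± 0.42), *Rasl10a* (9.28 ± 3.02), *Gem* (2.83 ± 1.99), *Rasd1* (1.145 ± 0.168) and *Rrad* (0.678 ± 0.117 TPM). There, *Rem2* and *Rasl11a*, *Rasd2* and *Rasl10a*, and *Gem* and *Rasd1* overlapped, and *Rasl11a* had moved from the second place to the fourth.

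*Rasl11a* encodes an atypical Ras-like protein of the nucleolus that is known to promote ribosomal RNA transcription with the factor UBF. The gene (ENSMUSG00000029641) lies at chr5:146845071-146847726 on the plus strand of GRCm38. Its level was 21.5, 25.2, 19.5 and 19.99 CPM in vehicle-treated replicates 1 to 4, and 12.3, 10.3, 10.5 and 8.95 CPM in MCH-treated replicates 1 to 4. All 4 MCH-treated wells lay below all 4 vehicle-treated wells, on both sides of the split between replicates. The mean level with MCH was 48.8% of vehicle, a log2 fold change of −1.03 (SE 0.11). It rested on 538 to 694 reads per vehicle-treated well and 255 to 384 per MCH-treated well. Within replicates 1 and 2 the log2 fold change was −1.05 and within replicates 3 and 4 it was −1.03, and wells of the same number differed by −0.81, −1.28, −0.90 and −1.16. The least of these differences was between the replicates numbered 1, the largest between those numbered 2. Over 7 alternative analyses the log2 fold change ranged from −1.10 to −1.03, and from −1.12 to −0.95 with each well left out in turn.

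**Figure D1:**
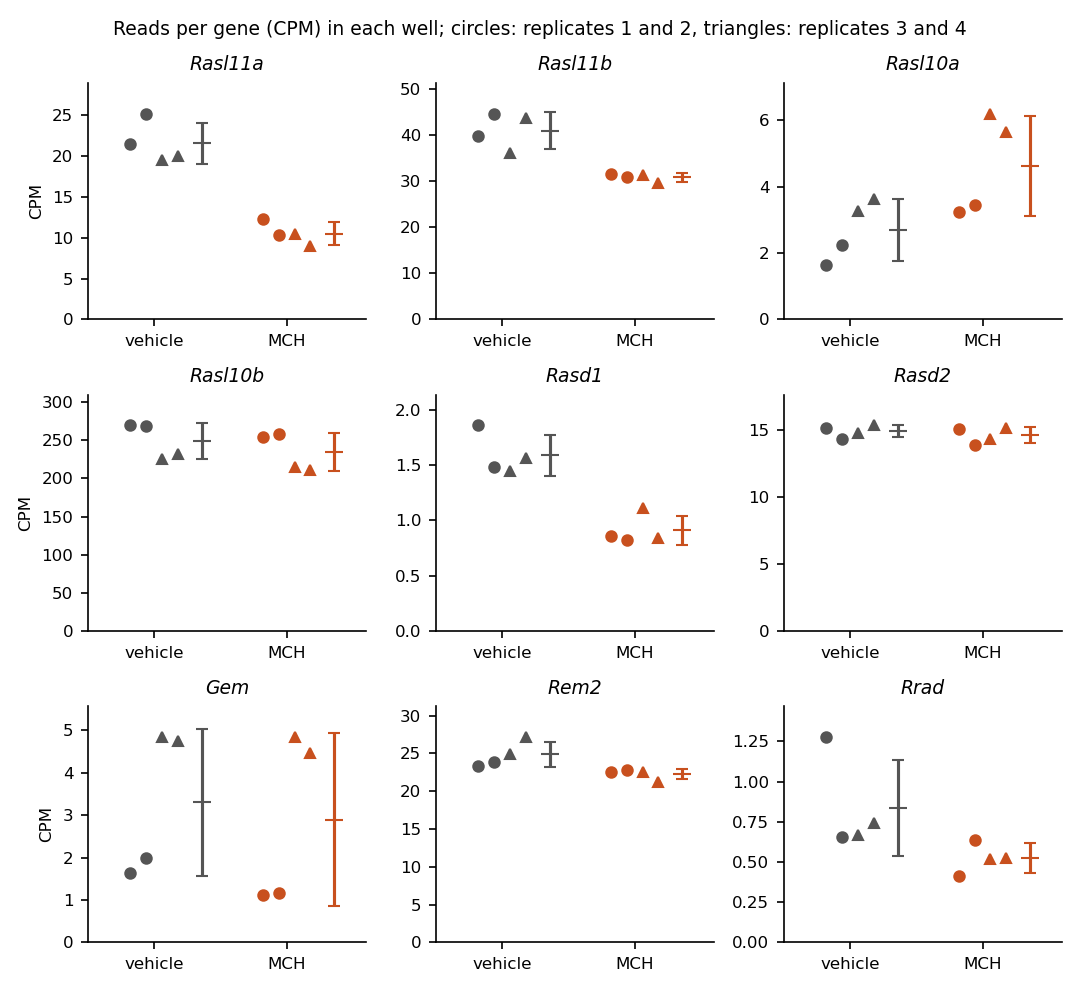
Level of each of the 9 small GTPase genes in CPM (vertical axes, from 0) in the 4 vehicle-treated (grey) and 4 MCH-treated wells (orange), with circles for replicates 1 and 2, triangles for replicates 3 and 4, and bars for the mean ± SD. *Rasl11a* wells lie at 19.5 to 25.2 CPM with vehicle and 8.95 to 12.3 CPM with MCH, whereas the *Gem* wells split by replicate number, at 1.12 to 1.99 CPM in replicates 1 and 2 and 4.46 to 4.84 CPM in replicates 3 and 4.

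The transcripts of *Rasl11a* were then compared, to see which of them carried the difference. Rasl11a-201, the protein-coding transcript of 4 exons and 1126 bases, held 520.6, 636.3, 552.0 and 493.8 estimated reads in the vehicle-treated wells and 379.7, 275.0, 302.0 and 218.1 in the MCH-treated wells. Its level was 39.0 ± 3.57 TPM with vehicle and 19.8 ± 3.59 TPM with MCH (SD, n = 4), and the treatments did not overlap. Rasl11a-202, a retained-intron transcript of 2 exons and 530 bases, held 34.4, 57.7, 0 and 44.2 reads with vehicle and 4.31, 0, 0 and 36.9 reads with MCH. It was listed at 0 in 3 of the 8 wells, in both treatments, and took at most 14.5% of the reads of the gene in a well (MCH-treated replicate 4). On the TPM scale, which corrects for its shorter length, its share in that well was 34.6%. Its level was 7.59 ± 5.38 TPM with vehicle and 2.20 ± 3.85 TPM with MCH, so its mean was lower with MCH too, with wide spread. The protein-coding transcript thus carried most reads of the gene in every well, and the division of reads between the transcripts is an estimate by salmon.

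**Figure D2:**
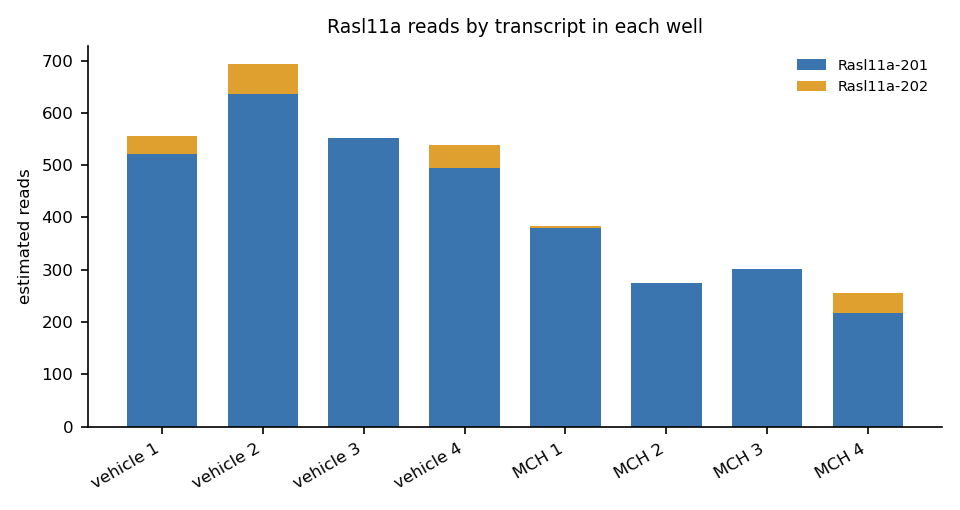
Estimated reads of the gene *Rasl11a* in each of the 8 wells (vertical axis, from 0), stacked by transcript, with the protein-coding Rasl11a-201 in blue and the retained-intron Rasl11a-202 in yellow. Rasl11a-201 has 493.8 to 636.3 reads in vehicle-treated and 218.1 to 379.7 reads in MCH-treated wells, and Rasl11a-202 has at most 57.7 reads.

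Of all genes, 35 passed an adjusted *P* of 0.05 in edgeR's quasi-likelihood test, 31 lower and 4 higher with MCH, which is 0.234% of the 14962 tested. None of the 8 genes other than *Rasl11a* was among them, nor with limma voom, with DESeq2 size factors in edgeR or with an offset for transcript length. *Rasl11b* was called by DESeq2, where 1.25% of genes were called, and by edgeR without the filter on low counts, where 0.191% were. With the replicate number as a block, 3.98% of genes were called, and 2 of the 8, *Rasl11b* and *Rasl10a*. With the side as a block, 4.46% were called, and 3 of the 8, *Rasl11b*, *Rasl10a* and *Rasd1*. At an unadjusted *P* under 0.05 in the fit without a block, 8.5% of genes and 4 of the 8 passed (*Rasl11b*, *Rasl10a*, *Rasd1* and *Rem2*). *Rasl11b*, *Rasd1*, *Rem2* and *Rrad* were lower in every MCH-treated than in every vehicle-treated well, as were 2.96% of all genes, and none of the 8 was higher in every MCH-treated well, as were 3.07% of all genes. The median log2 fold change was −0.17 over the 8 and −0.0027 over all genes. A negative value was found for 7 of the 8, and for 7637 of the 14962 genes tested. Since the 9 genes were put together with results of these wells known, these counts are a description of them.

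*Rasl11b* encodes the closest relative of Rasl11a in the RASL11 group. The gene (ENSMUSG00000049907, chr5:74195286-74199481, plus strand) was measured at 39.8, 44.7, 36.1 and 43.7 CPM in the vehicle-treated wells and at 31.5, 30.9, 31.4 and 29.6 CPM in the MCH-treated wells. The treatments did not overlap, and the MCH-treated wells were the more tightly grouped (41.05 ± 3.94 against 30.85 ± 0.879 CPM, SD, n = 4). The log2 fold change was −0.41 (SE 0.07, 95% interval −0.56 to −0.26), or 75.2% of vehicle, with an adjusted *P* of 0.0597 in edgeR's quasi-likelihood test, where it was 38th in order of *P*. It was −0.43 within replicates 1 and 2 and −0.38 within replicates 3 and 4, and all 4 pairs of wells with the same number were lower with MCH, by −0.20 to −0.56. The adjusted *P* was 0.0006 with the replicate block and 0.000329 with the side block in edgeR, 0.0271 in edgeR without the filter, and 0.000119 in the DESeq2 Wald test. Leaving out vehicle-treated replicate 3, the lowest of its group, gave −0.46 and an adjusted *P* of 0.028 in edgeR, and the other 7 omissions kept it above the threshold. The estimate was nearly the same in all of these analyses, and it was the adjusted *P* that crossed the threshold in some and not in others. Its protein-coding transcript Rasl11b-201 held 97.9% of the TPM of the gene.

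*Rasl10a*, also known as RRP22, encodes a nucleolar Ras-related protein described as a growth suppressor, and was the only one of the 9 genes with a higher mean in the MCH-treated wells. The gene (ENSMUSG00000034209, chr11:5058128-5060385, plus strand) was at 1.63, 2.25, 3.28 and 3.64 CPM in vehicle-treated and at 3.23, 3.45, 6.19 and 5.65 CPM in MCH-treated wells, from 42 to 98 and 92 to 179 reads. The treatments overlapped, since replicates 3 and 4 were higher than replicates 1 and 2 under either treatment, by 1.79-fold on average. Within each side both MCH-treated wells were above both vehicle-treated wells. The log2 fold change was 0.78 (SE 0.30, 95% interval 0.098 to 1.46), 0.80 within replicates 1 and 2 and 0.78 within replicates 3 and 4, and the 4 pairs of wells differed by 0.99, 0.62, 0.92 and 0.63. Its adjusted *P* in edgeR's quasi-likelihood test was 0.516 without a block, 0.00174 with the replicate block and 0.00114 with the side block, at standard errors of 0.30, 0.13 and 0.13. The estimate lay between 0.77 and 0.78 in all of the 7 alternative analyses, and only the fits with a block put it past the threshold. With each well left out in turn it ranged more widely, from 0.60 to 0.96. It overlaps *Gas2l1* on the opposite strand in 14 of its 1413 exonic bases, and *Gas2l1* was at 46.5 ± 6.75 and 52.1 ± 5.11 CPM with vehicle and MCH (log2 fold change 0.16, adjusted *P* = 0.77 in edgeR). Whether the counting used strand is not given in the sources used here.

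*Rasl10b*, or RRP17, is a relative of *Rasl10a*, and the gene (ENSMUSG00000020684, chr11:83409137-83421039, plus strand) was the best covered of the 9, with 6028 to 7973 reads per well. Vehicle-treated wells had 269.7, 269.2, 224.9 and 231.9 CPM and MCH-treated wells 254.7, 258.1, 215.3 and 211.6 CPM. The wells overlapped between treatments and not between the sides, where replicates 3 and 4 were at 0.840 of replicates 1 and 2, the opposite direction to *Rasl10a*. The log2 fold change with MCH was −0.08 (95% interval −0.28 to 0.12, adjusted *P* = 0.901 in edgeR), and the pairs of wells differed by −0.061 to −0.13. Its standard error was 0.088 without a block, 0.029 with the replicate block and 0.026 with the side block. The adjusted *P* in edgeR was 0.113 with the replicate block and 0.0712 with the side block, above the threshold in both. Rasl10b-202 held 91.6% of the TPM of the gene, and 4 transcripts were quantified.

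**Figure D3:**
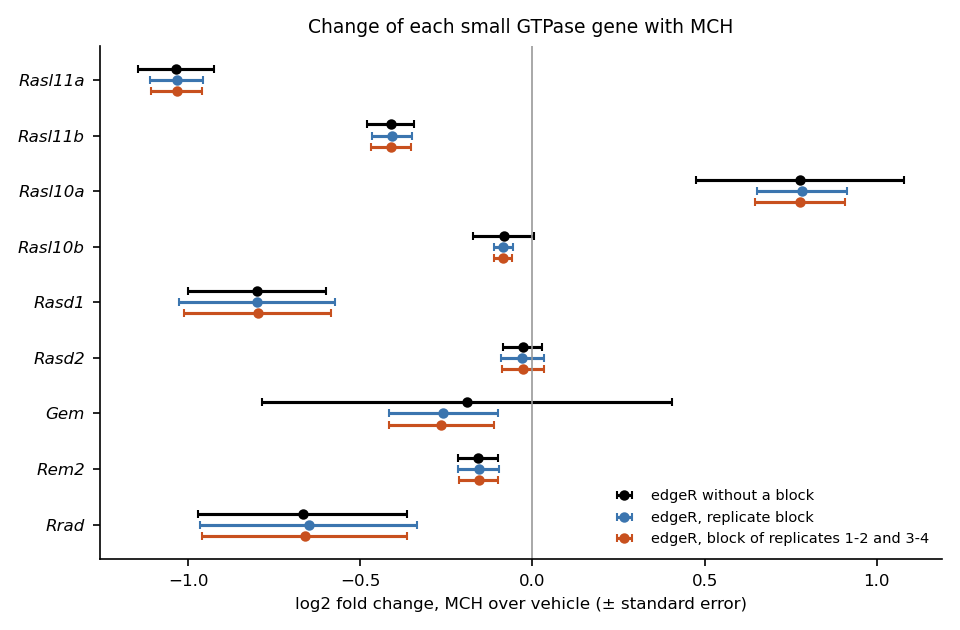
Log2 fold change of MCH over vehicle (horizontal axis) of each of the 9 genes, with bars for the standard error, in edgeR without a block (black), with the replicate block (blue) and with the side block of replicates 1 and 2 against 3 and 4 (orange). *Rasl11a* is at −1.03 in all 3 fits, while the standard error of *Rasl10a* is 0.30 without a block and 0.13 with either block, and that of *Gem* is 0.59 without a block and 0.16 with the replicate block.

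*Rasd1* encodes Dexras1, a glucocorticoid-induced Ras-like protein that is tied to neuronal nitric oxide synthase through the adaptor Nos1ap. The gene (ENSMUSG00000049892, chr11:59963181-59964944, minus strand) was weakly expressed, at 1.86, 1.49, 1.45 and 1.56 CPM with vehicle and 0.86, 0.83, 1.11 and 0.84 CPM with MCH. These values rested on 41 to 48 and 22 to 32 reads per well. All MCH-treated wells were below all vehicle-treated wells, with MCH-treated replicate 3 nearest to them. Its log2 fold change was −0.80 (SE 0.20, 95% interval −1.25 to −0.35), or 57.5% of vehicle, and the adjusted *P* in edgeR's quasi-likelihood test was 0.233 without a block, 0.056 with the replicate block and 0.0355 with the side block. It was −0.98 within replicates 1 and 2 and −0.64 within replicates 3 and 4, and all 4 pairs were lower, by −1.11, −0.85, −0.38 and −0.89. *Rasd1* passed the threshold with the side block alone.

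*Rasd2* encodes Rhes, a relative of Dexras1 that is enriched in the striatum and binds mTOR. The gene (ENSMUSG00000034472, chr8:75213944-75224113, plus strand) was at 15.2, 14.4, 14.8 and 15.4 CPM in vehicle-treated and at 15.1, 13.9, 14.4 and 15.2 CPM in MCH-treated wells, from 371 to 473 reads. It varied least of the 9 genes across all 8 wells. The treatments overlapped, the log2 fold change was −0.03 (95% interval −0.16 to 0.098), and the adjusted *P* was 0.987 in edgeR's quasi-likelihood test. The interval of *Rasd2* did not overlap that of *Rasd1*, but the difference between the 2 genes was not tested. Both RASD genes were read from a single transcript each, Rasd1-201 and Rasd2-202.

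*Gem*, an RGK gene whose product binds calcium channel β subunits, differed mainly between the sides. The gene (ENSMUSG00000028214, chr4:11704457-11714752, plus strand) was at 1.63, 1.99, 4.83 and 4.76 CPM in vehicle-treated and at 1.12, 1.16, 4.84 and 4.46 CPM in MCH-treated wells, from 31 to 140 reads. Replicates 3 and 4 were 3.29-fold above replicates 1 and 2 on average, the largest such ratio of the 9 genes. In the same wells the sums of astrocyte, oligodendrocyte lineage (125 to 146.2 against 56.9 to 67.1 CPM) and fibroblast and vessel markers (12.3 to 13.97 against 6.16 to 6.74 CPM) were higher too. Of the 7 oligodendrocyte lineage markers, only 3 were higher in each of these wells. Among them *Olig1* ranged from 24.7 to 100.8 CPM with vehicle, and *Mbp* only from 35.2 to 39.2 CPM. The part of these cell types in the *Gem* level was not tested. The log2 fold change with MCH was −0.19 (SE 0.59, 95% interval −1.56 to 1.18; adjusted *P* = 0.9999 in edgeR), so that these wells set no narrow limit on it. With the replicate block it was −0.26 (SE 0.16, adjusted *P* = 0.419 in edgeR). It was −0.66 within replicates 1 and 2 and −0.04 within replicates 3 and 4, and its sign turned when vehicle-treated replicate 3 or 4, or MCH-treated replicate 1 or 2, was left out (0.055, 0.037, 0.083 and 0.071). These omissions leave the sides unequal in a fit that takes no account of them, and whether this bears on the sign was not tested. Wells of the same number differed by −0.54, −0.78, 0.0043 and −0.093.

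*Rem2*, a neuronal RGK gene whose product restrains dendritic branching, had a small difference. The gene (ENSMUSG00000022176, chr14:54476100-54480431, plus strand) was at 23.4, 23.9, 25.0 and 27.2 CPM in vehicle-treated and at 22.5, 22.9, 22.5 and 21.3 CPM in MCH-treated wells, from 603 to 732 reads. The treatments did not overlap, but the lowest vehicle-treated well (23.4 CPM) lay close above the highest MCH-treated well (22.9 CPM). Its log2 fold change was −0.16 (SE 0.06, 95% interval −0.29 to −0.026), or 89.7% of vehicle, with an adjusted *P* of 0.488 in edgeR's quasi-likelihood test and of 0.127 to 0.805 over the 7 alternative analyses. It was −0.06 within replicates 1 and 2 and −0.25 within replicates 3 and 4. Rem2-202 held 90.3% of the TPM of the gene, and a retained-intron transcript held 9.44%.

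*Rrad*, the RGK gene first described in muscle, was the least expressed of the 9, with 13 to 33 reads per well. The gene (ENSMUSG00000031880, chr8:104628070-104631327, minus strand) was at 1.28, 0.65, 0.67 and 0.74 CPM in vehicle-treated and at 0.42, 0.64, 0.52 and 0.53 CPM in MCH-treated wells. The treatments did not overlap, but vehicle-treated replicate 2 and MCH-treated replicate 2 differed by only −0.03 on the log2 scale, and vehicle-treated replicate 1 stood above the rest. On the log2 scale the fold change was −0.67 (SE 0.30, 95% interval −1.35 to 0.016), with an adjusted *P* of 0.597 in edgeR's quasi-likelihood test. Without vehicle-treated replicate 1 it was −0.39 (SE 0.28). *Rrad* overlaps *Gm33023* on the opposite strand in 141 of its 1577 exonic bases, and *Gm33023* was not analysed here.

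**Figure D4:**
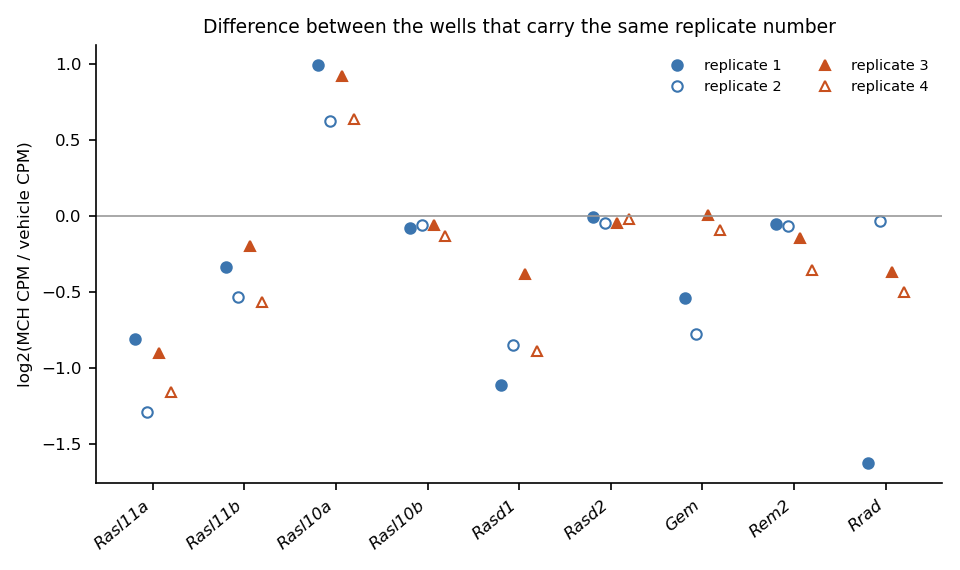
Log2 ratio of MCH to vehicle CPM between the 2 wells that carry the same replicate number (vertical axis), for each of the 9 genes, with blue circles for replicates 1 and 2 and orange triangles for replicates 3 and 4. The 4 ratios are between −1.28 and −0.81 for *Rasl11a*, between 0.62 and 0.99 for *Rasl10a*, and between −0.78 and 0.0043 for *Gem*.

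The profile of *Rasl11a* over the 8 wells was then set beside those of all genes tested. The 5 genes with the highest Pearson correlation of log2 CPM with it were *Fos* (r = 0.986), *Man1a* (0.986), *Stk40* (0.986), *Spry2* (0.984) and *Rexo4* (0.979). The wells of *Rasl11a* form 2 groups by treatment that do not overlap, so a high r reflects chiefly a lower level in the same 4 wells, and genes found in this way are lower with MCH by construction. *Fos*, an AP-1 subunit, was at 62.7 ± 7.09 CPM in vehicle-treated and 33.4 ± 2.36 CPM in MCH-treated wells (SD, n = 4). *Spry2*, a feedback inhibitor of receptor tyrosine kinase signaling to ERK, had 98.2 ± 7.39 and 67.9 ± 3.57 CPM, and *Man1a*, a Golgi mannosidase, had 40.9 ± 3.55 and 28.3 ± 1.78 CPM. The kinase-related gene *Stk40* had 71.1 ± 5.44 and 54.4 ± 2.26 CPM, and *Rexo4* 35.0 ± 0.773 and 31.7 ± 0.849 CPM. Log2 fold changes were −0.91, −0.53, −0.53, −0.39 and −0.15 in this order. None of the 5 was as far below vehicle as *Rasl11a*, which was itself picked for its difference. Within the treatments, as deviations from each mean, r with *Rasl11a* was 0.812 for *Fos*, 0.870 for *Man1a*, 0.907 for *Stk40*, 0.802 for *Spry2* and 0.862 for *Rexo4*, and since the genes were selected for their r over the same wells, these values are no independent measure of likeness. Within vehicle, replicate 2 was the highest well of all 6 genes.

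**Figure D5:**
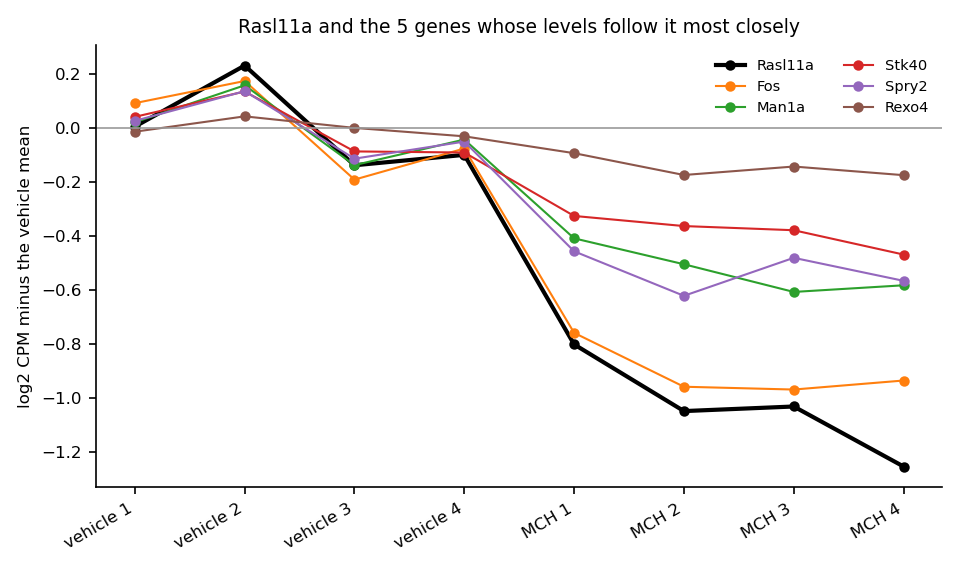
Log2 CPM of *Rasl11a* (black) and of the 5 genes with the highest correlation with it, minus the vehicle mean of each gene (vertical axis), in the 8 wells, with lines joining the points of a gene. MCH-treated wells of *Rasl11a* lie at −0.80 to −1.25 and those of *Rexo4* at −0.093 to −0.17.

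Among the 9 genes, *Rasl11b* followed *Rasl11a* most closely (r = 0.945, 57th of all genes in this order, and 0.593 in deviations from the mean of each treatment), ahead of *Rasd1* (0.899 and 0.048), *Rem2* (0.711 and −0.12), *Rrad* (0.618 and −0.25) and *Rasl10b* (0.504 and 0.746). *Rasd2* (0.229 and −0.28), *Gem* (−0.0056 and −0.69) and *Rasl10a* (−0.77 and −0.61) were the least alike. This order is by the first r, and in the deviations *Rasl10b* had the highest r of these genes. These r are descriptions over 8 wells that share treatments, libraries and sides.

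Proteins that the 9 small GTPases bind or act on were taken from a list of 23 genes, all of which were tested, to see whether their transcripts differed too. No member passed in edgeR without a block, in DESeq2 or in limma voom, where 35, 157 and 28 of all genes passed, and 3 had an unadjusted *P* under 0.05 (8.5% of all genes). The median log2 fold change was 0.02. The calcium channel gene *Cacna1d* was at 35.8 ± 2.06 and 40.9 ± 1.16 CPM with vehicle and MCH (log2 fold change 0.19, adjusted *P* = 0.259 in edgeR). *Slc11a2*, the iron transporter that Dexras1 signaling acts on, had a log2 fold change of −0.13 (adjusted *P* = 0.553) and *Cacna1b*, another channel of the type that RGK proteins inhibit, of 0.18 (adjusted *P* = 0.578, edgeR). With the replicate block, which called 3.98% of all genes, 2 of the 23 were called, *Cacna1d* higher and *Rock2*, which encodes a kinase that acts on the actin cytoskeleton, lower.

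The other Ras family GTPases, a list of 26 genes with 23 tested, gave no call in edgeR without a block, in DESeq2 or in limma voom. Of all genes, 0.234% passed in edgeR, 1.25% in DESeq2 and 28 of 14962 in limma voom. With shares this low, a list of this size would hold few calls or none. *Rem1*, the fourth RGK gene, and *Rergl* had no reads in any well and *Eras* had 1 read in all, so *Gem*, *Rem2* and *Rrad* were the RGK genes that could be measured here. Unadjusted *P* in edgeR was under 0.05 for 5 genes, against 8.5% of all genes. The median log2 fold change was −0.037, with 16 of the 23 negative, as were 7637 of the 14962 genes tested. *Rap1b*, a relative of Ras that acts in cell adhesion, had 117.2 ± 4.18 and 107 ± 2.10 CPM (log2 fold change −0.13, adjusted *P* = 0.303 in edgeR). *Rras2* had a log2 fold change of −0.11 (adjusted *P* = 0.492 in edgeR). With the replicate block, where 3.98% of all genes passed, 3 of the 23 did, *Rap1b*, *Rap2a* and *Rerg*, of which 2 were lower.

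Exchange factors and GAPs for Ras and Rap, which switch such GTPases on and off, were a list of 36 genes with 35 tested, *Rasal3* having 3 reads in all. None passed in edgeR without a block, DESeq2 or limma voom, where only 35, 157 and 28 of all genes passed. In edgeR, 5 had an unadjusted *P* under 0.05 (8.5% of all genes), and the median log2 fold change was 0.028. The Ras GAP *Rasa1* had 67.1 ± 1.46 and 59.7 ± 3.13 CPM (log2 fold change −0.17, adjusted *P* = 0.266 in edgeR). *Sipa1l2*, a Rap GAP of the synapse, had −0.14 (adjusted *P* = 0.387) and *Rap1gap2*, another Rap GAP, 0.13 (adjusted *P* = 0.338, edgeR). With the replicate block 7 of the 35 passed, 2 lower and 5 higher, against 3.98% of all genes, 337 lower and 259 higher.

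Early response genes, which neurons switch on within minutes of activity, are given for comparison, although this list of 16 was written with results of these wells known and is no independent evidence. *Fosb*, *Arc*, *Fos*, *Npas4*, *Fosl2* and *Nr4a2* passed in edgeR without a block, where 0.234% of all genes passed, and all 6 fell. DESeq2 called 9 of the 16, against 1.25% of all genes, and limma voom called 6, against 28 of 14962 genes. All 16 had a negative log2 fold change in edgeR, as did 7637 of the 14962 genes tested. Their median was −0.40, against −0.17 over the 8 small GTPase genes other than *Rasl11a*. The transcription factor gene *Npas4* was at 38.0 ± 2.33 and 19.8 ± 3.12 CPM with vehicle and MCH, a log2 fold change of −0.94 (SE 0.11, adjusted *P* = 0.0135 in edgeR). That of *Rasl11a*, −1.03, was of a like size, with a standard error of 0.11 for both. The *Rasl11a* value remains a description without a test, since the gene was picked for it. *Arc*, which encodes a synaptic scaffold protein, fell by 0.59 on the log2 scale (adjusted *P* = 0.00492 in edgeR).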

How the data were processed

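Bulk RNA-seq of 4 vehicle-treated and 4 MCH-treated wells was analysed, with treatment and replicate number taken from the labels. The submitters' processing notes name Salmon, GRCm38, R 4.0.3 and DESeq2 1.13.0. The authors ran salmon within nf-core/rnaseq and deposited unscaled estimated counts per gene (9.13% of values not whole), and estimated counts, effective lengths and TPM (scaled for length and depth) per transcript. Names and coordinates are from GENCODE vM21 (GRCm38, 98.8% of genes named), promoter sequences from RefSeq (GRCm38.p6).

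After rounding, counts were tested with edgeR 4.0.16 in R 4.3.3 (TMM, filterByExpr with minimum counts of 10 and 15 in total, robust quasi-likelihood F test without a block, Benjamini–Hochberg adjustment over 14962 genes, threshold 0.05), and the scripts were checked on simulated counts. Standard errors are the log2 fold change divided by the square root of F. CPM use the TMM factors. Totals per well were 26083936 to 31844861, and 3 reads were taken as the floor of detection, which covers counting error only.

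Alternatives were DESeq2 1.42.0 (no adjusted *P* for *Rasd1* and *Rrad* after independent filtering), limma 3.58.1 voom, DESeq2 size factors, no filter, a transcript length offset, a replicate block, a side block and leaving out each well. In deviations from the treatment means, wells with the same number correlated at 0.445 to 0.545, other wells of the same side at 0.475 to 0.521 and wells across sides at −0.548 to −0.438. Since all 4 same-numbered pairs exceeded 0.1, the number was used as a block, but wells of the same number were no more alike than other wells of their side, and no label or method says what a number marks. The sides were read from the same counts that were then tested.

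The 9 genes and all lists were chosen with earlier results of these data known. Genes named are the 9, list members called or otherwise the 3 with the smallest *P* per list, the 5 genes most correlated with *Rasl11a*, and transcripts with at least 10% of the TPM of their gene. Others were named after their values were seen. A list member that this rule names is not reported here.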

Additional observations from a re-analysis of the deposited data

Results flagged for a closer look

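Among the 18 groups of 4 wells (9 genes in 2 treatments), 2 held a well that lay far from the other 3 by Dixon's criterion, where chance flags about 1 in 20 groups. *Rasd1* was at 1.11 CPM in MCH-treated replicate 3, against 0.83 to 0.86 CPM in the other MCH-treated wells, and without that well its log2 fold change was −0.90 in place of −0.80. *Rrad* was at 1.28 CPM in vehicle-treated replicate 1, against 0.65 to 0.74 CPM in the other vehicle-treated wells, and without that well its log2 fold change was −0.39 in place of −0.67. *Rasd1* had at most 48 reads and *Rrad* at most 33 in a well.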

How the results depend on the processing

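The number of genes called, 35 in edgeR without a block, was 157 in DESeq2, 7 with the transcript length offset, 596 with the replicate block and 668 with the side block, and 4 to 29 with each well left out in turn. Among the 8 small GTPase genes other than *Rasl11a*, 0 were called without a block, 1 without the filter, 1 in DESeq2, 2 with the replicate block and 3 with the side block, and 0 to 1 with a well left out, the 1 being *Rasl11b* without vehicle-treated replicate 3. The replicate and side blocks called 3 and 4 other Ras family GTPases, 2 and 2 partners, and 7 and 7 exchange factors and GAPs, against 0 without a block and 0 in every fit with a well left out. The log2 fold change of *Gem*, −0.19, turned to 0.055 without vehicle-treated replicate 3, 0.037 without vehicle-treated replicate 4, 0.083 without MCH-treated replicate 1 and 0.071 without MCH-treated replicate 2, in a range of −0.55 to 0.083. The other 8 genes kept their direction in all 15 alternatives, and the replicate block changed no call among the 8 tested genes beyond *Rasl11b* and *Rasl10a*. Causes of these differences were not tested. Fits with a well left out also hold fewer samples. *Rasd1*, *Rrad*, *Gem* and *Rasl10a* had at most 179 reads in a well, which limits the precision of their fold changes.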
